A study of Mus musculus with 12 samples.

Results

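The expression of 10 genes of the microtubule cytoskeleton was followed through the deposited expression tables, 2 alpha tubulins (Tuba1a and Tuba1b), 5 beta tubulins (Tubb2a, Tubb2b, Tubb3, Tubb4a and Tubb5), the polymerization-promoting protein Tppp, and the stathmins Stmn1 and Stmn4. These 10 members were chosen by name, with earlier results of these data known. All 10 were found among the 30165 genes of the oligodendrocyte progenitor cell (OPC) table and among the 17918 genes of the neuron table, and all 10 passed the filter on low counts in both.

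Microtubules are hollow polymers of alpha and beta tubulin dimers. Mammals carry several genes for each subunit, whose proteins, called isotypes, differ mostly in the acidic tail at the C-terminus, where enzymes add or remove amino acids and where motors and associated proteins bind. Tppp, found mainly in oligodendrocytes, bundles microtubules and nucleates them at Golgi outposts along myelin sheaths, whereas stathmins bind free tubulin dimers and promote disassembly. Oligodendrocytes are known for Tubb4a and Tppp, and young neurons for Tubb3, Tuba1a, Tubb2b and stathmins.

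Both tables compare control (ctl) mice, labelled WT, with double knockout (dKO) mice. In the latter, NG2-CreERT2 recombined floxed Cacna1c and Cacna1d after tamoxifen (100 mg/kg) was given at days 7 and 8 after birth. These are the genes of the L-type calcium channels Cav1.2 and Cav1.3. Whether the ctl mice carried the recombinase or floxed alleles, and the age at collection, were not given in the sources used here. OPCs had been enriched by magnetic sorting for CD140, NG2 and O4, and neurons by removing cells that carry ACSA-2, CD31, CD11b or O4. Each of the 4 groups had 3 libraries, each pooled from 2 mice, and the recombinase is active in NG2-expressing cells, which include mural cells as well as OPCs.

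The libraries held 14935963 to 19812274 counts in OPCs and 15052901 to 16344585 estimated counts in neurons. In OPCs the targeted Cacna1c stood at 21.3, 23.5 and 25.1 CPM (counts scaled to a fixed library total with TMM factors) in ctl and at 14.4, 19.3 and 17.9 in dKO libraries, with no overlap, and Cacna1d at 14.4, 10.9 and 14.6 against 5.31, 8.77 and 13.3, which overlapped. Only some exons are removed, so these gene totals check the deletion only in part. Both preparations were mixtures. In OPC libraries the summed level of 16 mature oligodendrocyte markers was 53900 to 91990 CPM and that of 14 OPC markers 1545 to 3016 CPM, and no OPC marker was at 0. The sum of 10 ependymal and choroid plexus markers was 17960 to 37720 CPM in the same libraries. In neuron libraries 16 neuronal markers, 15 of them detected, summed to only 442 to 1039 CPM, against 1433 to 2991 CPM for 12 immature neuron markers (11 detected) and 15360 to 32930 CPM for 14 endothelial markers. Red blood cell markers summed to 11090 to 73180 CPM in neuron libraries, and ependymal and choroid plexus markers to 9101 to 46610 CPM. "OPC" and "neuron" therefore name the labelled preparations. In such bulk samples, fewer cells of a type and less RNA per cell cannot be told apart.

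The tubulin genes are close copies of each other, which bears on how reads were assigned to them. The last 60 coding bases before the stop codon encode most of the C-terminal tail. They are shown for 2 pairs of beta tubulins whose levels are compared below. They were read from GENCODE M21 transcripts on GRCm38 in the sense of the gene. Capitals mark where the members of a pair differ in a global alignment of their whole coding sequences. They also mark bases that the other member lacks.
Tubb2a (chr13:34074471-34074530, minus strand): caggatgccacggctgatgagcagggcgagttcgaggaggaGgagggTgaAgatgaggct
Tubb2b (chr13:34127474-34127533, minus strand): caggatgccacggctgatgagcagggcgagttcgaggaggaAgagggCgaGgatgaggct
Tubb4a (chr17:57080693-57080752, minus strand): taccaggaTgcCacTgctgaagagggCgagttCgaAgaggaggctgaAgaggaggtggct
Tubb4b (chr2:25222311-25222370, minus strand): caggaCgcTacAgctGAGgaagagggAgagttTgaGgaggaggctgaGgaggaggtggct

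Over this stretch Tubb2a and Tubb2b differed at 3 bases. Tubb4a and Tubb4b differed at 7, and Tubb4b had 3 bases more. None of these substitutions changes the encoded amino acid. Tubb2a and Tubb2b therefore encode the same amino acids over this stretch. Aside from the added GAG codon of Tubb4b, so do Tubb4a and Tubb4b where they are aligned. Over the whole coding sequence identity was 98.3% for Tuba1a and Tuba1b (23 differences in 1353 aligned positions), 96.5% for Tubb2a and Tubb2b (47 in 1335), and 83.2% for Tubb4a and Tubb4b. Windows of 100 bases that also occur, letter for letter, in a transcript of another gene made up 65.1% of the longest coding transcript of Tuba1a and 69.5% of that of Tuba1b. They made up 36.9% for Tubb2a, 27.7% for Tubb2b and 26.1% for Stmn1, whose partner was the predicted gene Gm11223. No window of Tubb3, Tubb4a, Tubb5, Tppp or Stmn4 was shared. Levels, shares and fold changes of Tuba1a, Tuba1b, Tubb2a, Tubb2b and Stmn1 are therefore uncertain as values of single genes. For the tubulins among them, the fold changes of the summed copies are given as well.

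The genes lie on 6 chromosomes in the OPC table, where all are protein-coding and span whole genes. The coordinates are printed as deposited. The submitters' processing notes name mm39 and the study's methods GRCm38, and none of the 10 spans matched GENCODE M21 on GRCm38. Tuba1a (ENSMUSG00000072235, chromosome 15 from 98847718 to 98851584) and Tuba1b (ENSMUSG00000023004, from 98829306 to 98832446) are neighbours, as are Tubb2a (ENSMUSG00000058672, chromosome 13 from 34258257 to 34261990) and Tubb2b (ENSMUSG00000045136, from 34310731 to 34314449). Tppp (ENSMUSG00000021573) is also on chromosome 13, from 74157526 to 74183872, and Tubb4a (ENSMUSG00000062591) and Tubb5 (ENSMUSG00000001525) are on chromosome 17, from 57387066 to 57394782 and from 36144813 to 36149198. Tubb3 (ENSMUSG00000062380) is on chromosome 8 from 124138163 to 124148754, Stmn1 (ENSMUSG00000028832) on chromosome 4 from 134195631 to 134201154, and Stmn4 (ENSMUSG00000022044) on chromosome 14 from 66581745 to 66599129.

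Levels of different genes were compared per length, as TPM (transcript counts divided by length and scaled to a fixed total). In ctl OPC libraries Tubb4a led with 3987 ± 845 TPM (SD, n = 3), far above the next 4 members, Tuba1a (1162 ± 174 TPM), Stmn4 (1020 ± 228 TPM), Stmn1 (901 ± 152 TPM) and Tppp (865 ± 158 TPM). Those 4 did not differ from their neighbours in the order beyond their SD. Tuba1b followed at 273 ± 4.55 TPM, and Tubb5 at 112 ± 8.26 TPM. The lowest 3 were the beta tubulins Tubb3 (84.3 ± 22.5 TPM), Tubb2a (82.9 ± 7.17 TPM) and Tubb2b (78.8 ± 20.2 TPM), which were not distinguishable.

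In ctl neuron libraries the order was another one. Tuba1a (3123 ± 567 TPM, SD, n = 3) and Stmn1 (2783 ± 388 TPM) led and lay within 1 SD of each other, followed by Tuba1b (986 ± 76.0 TPM) and Tubb5, the beta tubulin most widely expressed across tissues (568 ± 47.3 TPM). Tubb3 (190 ± 41.9 TPM), Tubb2a (155 ± 24.7 TPM) and Tubb4a (131 ± 55.4 TPM) formed a middle group with overlapping spreads. Stmn4 (75.0 ± 8.90 TPM) and Tubb2b (51.5 ± 13.1 TPM) were lower, and Tppp was last at 12.9 ± 5.80 TPM. Stmn4 was listed as 6 transcripts in the neuron table, 1 of which carried 64.7% to 78.9% of its TPM in every library. The tables were made and scaled separately, so no test was run between them. Their TPM also rest on unlike lengths. OPC TPM used the deposited gene length (1922 bases for Stmn1), whereas neuron TPM was deposited per transcript. In CPM, Stmn1 was below Tuba1a in both preparations (473 and 573 in ctl OPCs, 1414 and 2598 in ctl neurons). The place of Stmn1 in the 2 orders is therefore not directly comparable.

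**Figure D1:**
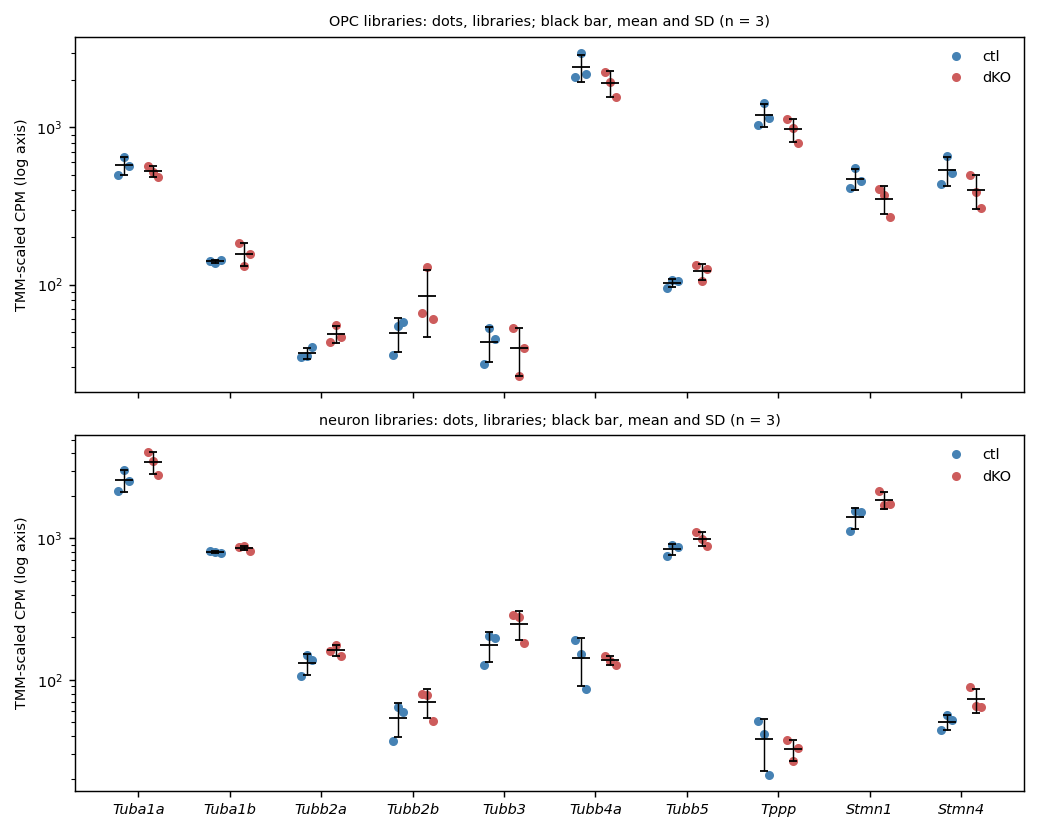
TMM-scaled CPM (log axis) of the 10 members in each of the 6 OPC libraries (top) and 6 neuron libraries (bottom), with ctl in blue, dKO in red and black bars for the mean and SD (n = 3). Tubb4a is the highest member in OPCs at 1555 to 2981 CPM and Tuba1a in neurons at 2184 to 4084 CPM, and groups are separated without overlap for Tubb2a, Tubb2b and Stmn1 in OPCs and for Tuba1b, Stmn1 and Stmn4 in neurons.

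The beta isotype make-up of the OPC libraries was dominated by Tubb4a. Of the TPM summed over 8 beta tubulin genes, Tubb4a made up 81.4%, 86.6% and 80.6% in ctl OPCs and 79.8%, 76.6% and 73.5% in dKO OPCs. All dKO libraries were below all ctl libraries, a difference of -6.26 percentage points (exact two-sided permutation test, p = 0.1, the smallest that 3 against 3 libraries can give). Smaller shares went the other way without overlap, those of Tubb2a (1.76% ± 0.318 in ctl and 2.72% ± 0.532 in dKO), Tubb2b (1.65% ± 0.375 and 3.32% ± 1.45) and Tubb5 (2.37% ± 0.271 and 3.30% ± 0.596; SD, n = 3 each). Over the 2 preparations 30 shares were tested without adjustment, and shares of one total are not independent of each other. For gene levels, the groups did not overlap for 17.0% of all genes tested in OPCs. The Tubb2b difference of 1.68 points was 0.854 without dKO 2, and the Tubb5 difference of 0.926 points was 0.594 without dKO 3. Tubb4b, the second isotype, held 9.45% ± 2.66 in ctl and 11.9% ± 2.03 in dKO libraries with overlap, and Tubb3, the isotype used as a neuronal marker, 1.75% ± 0.270 and 1.90% ± 0.567.

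In neuron libraries the beta isotypes were mixed and no share was separated between the groups. Tubb5 held 38%, 39.4% and 41.6% in ctl and 39.6%, 38.1% and 39.5% in dKO libraries, with overlapping groups. Tubb4b held 20.2% to 24.8%, Tubb3 10.2% to 17.2%, Tubb2a 9.39% to 11.9% and Tubb2b 2.67% to 4.28% over the 6 libraries. The Tubb4a share ran from 5.5% in ctl 3 to 12.9% in ctl 1, while the 3 dKO libraries lay between 6.95% and 7.62%. The exact permutation p of these 6 shares was between 0.3 and 1.0.

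The 2 largest alpha shares had similar ranges in the 2 preparations. Tuba1a held 71.4% to 80.3% of alpha tubulin TPM in OPC libraries and 71.3% to 80.6% in neuron libraries, and Tuba1b 16.2% to 22.5% and 17.4% to 27.1%. The Tuba1a share was 3.78 percentage points lower in dKO OPCs (77.1% ± 3.25 in ctl and 73.3% ± 2.67 in dKO) and 3.71 points higher in dKO neurons (74.7% ± 3.44 and 78.4% ± 2.35), with overlapping groups and p = 0.2 in both (exact permutation test). Without ctl 2 the OPC difference was -2.17 points, and without ctl 1 the neuron difference was 1.99 points. Tuba1c stayed at 4.50% or lower. Tuba4a was the only alpha share separated without overlap in OPCs, with 1.05% to 1.39% in ctl and 1.43% to 2.26% in dKO (p = 0.1, exact permutation test). Tuba3b, Tuba8 and Tubal3 held shares near 0 in OPCs.

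Although alpha and beta subunits pair in the dimer, their summed levels were not equal. Beta tubulin TPM was 2.52 to 3.44 times alpha tubulin TPM in OPC libraries and 0.310 to 0.364 times in neuron libraries. The share of sequence held in common with other genes is largest for Tuba1a and Tuba1b, and the tables counted genes and transcripts in different ways. How far the counting moved these ratios was not tested. Summed beta tubulin was 4790 ± 819 TPM in ctl and 3849 ± 325 TPM in dKO OPCs (SD, n = 3, p = 0.2) and 1434 ± 137 against 1683 ± 195 TPM in neurons (p = 0.2, exact permutation tests).

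**Figure D2:**
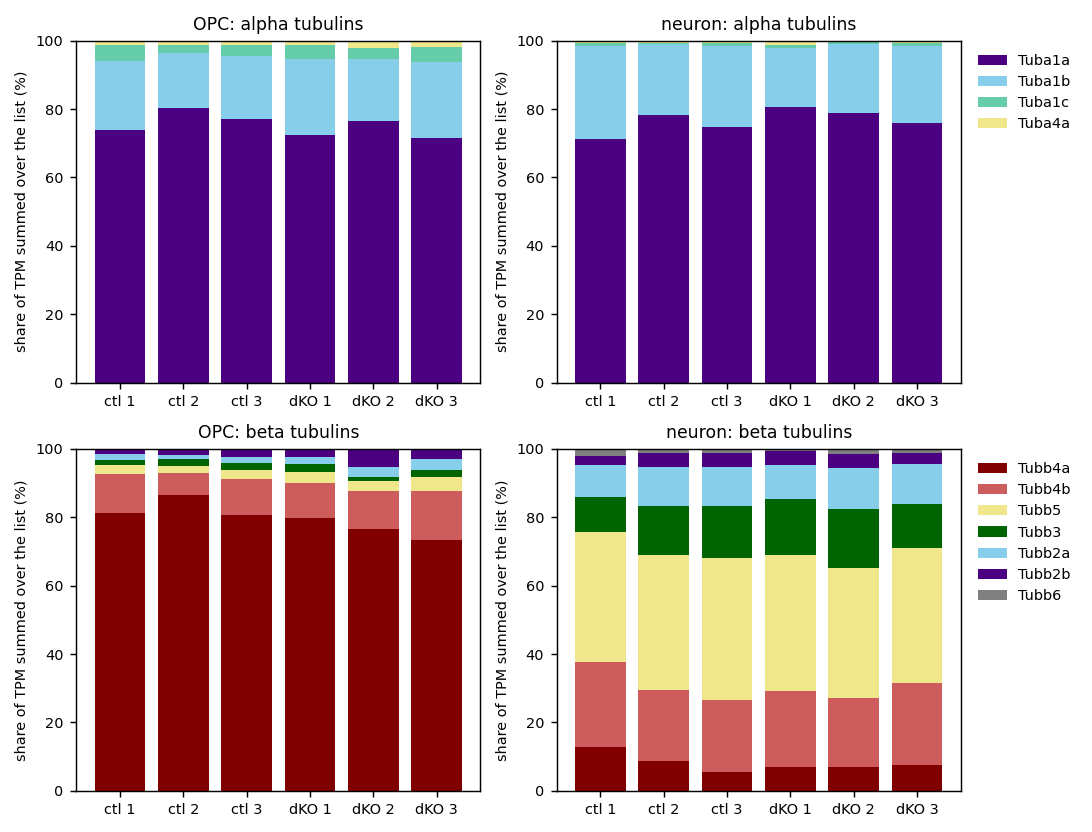
Share (%) of each gene in the TPM summed over alpha tubulins (top) and beta tubulins (bottom) in each OPC library (left) and neuron library (right), with genes under 0.1% not drawn. Tubb4a fills 73.5% to 86.6% of the OPC bars and 5.5% to 12.9% of the neuron bars, where Tubb5 leads with 38% to 41.6%. In the alpha bars Tuba1a and Tuba1b have similar ranges in the 2 preparations, while Tuba1c and Tuba4a are smaller in neurons.

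The second question was whether the members differed between dKO and ctl libraries. With edgeR's quasi-likelihood test adjusted over all genes, none of the 10 members had an adjusted p under 0.05 in OPCs (range 0.319 to 0.898), where 1 of 17364 genes tested did (0.00576%), and DESeq2 called 293 genes but none of the members. At an unadjusted p under 0.05, 2 members were higher (Tubb2a and Tubb2b) and 1 was lower (Stmn1) in dKO OPCs, beside 11.5% of all genes tested (6.27% higher and 5.27% lower). The groups did not overlap for the same 3 members, beside 17.0% of all genes. Over the 10 members the median log2 fold change was -0.12, against 0.01 over all genes tested.

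Tubb2a and Tubb2b, neighbouring genes whose products are prominent in the developing brain, were the members with the highest fold changes in OPCs. Tubb2a stood at 34.5, 35.1 and 39.9 CPM in ctl and at 43.3, 55.0 and 46.6 CPM in dKO libraries. Every dKO library was above every ctl library, with a log2 fold change of 0.40 (SE 0.13, unadjusted p = 0.012, adjusted p = 0.319, edgeR). Tubb2b stood at 35.5, 54.9 and 57.7 CPM in ctl and 65.5, 129 and 60.1 CPM in dKO libraries, where dKO 2 was far above the rest and dKO 3 only just above ctl 3. Its log2 fold change was 0.79 (SE 0.30, unadjusted p = 0.031, adjusted p = 0.391, edgeR). Counted as 1 feature, the pair gave 0.64 (unadjusted p = 0.0221).

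Astrocyte markers moved in the same libraries as this pair. Of 12 astrocyte markers, 11 were higher in dKO OPCs at an unadjusted p under 0.05 and none was at 0. Their sum was 1190, 1831 and 2134 CPM in ctl and 2080, 6261 and 3245 CPM in dKO libraries, so dKO 2 was highest for the markers, for Tubb2a and for Tubb2b. Without dKO 2 the log2 fold change of Tubb2b was 0.35 (unadjusted p = 0.114) and that of Tubb2a 0.30 (unadjusted p = 0.0433, edgeR), and without ctl 1 that of Tubb2b was 0.59 (unadjusted p = 0.104). All 14 microglial markers were higher as well, with sums of 299 to 361 CPM in ctl and 395 to 1210 CPM in dKO libraries. Also highest in dKO 2 were the neuron marker sum (185.6 CPM, beside 122.4 to 146.5 CPM in ctl) and the red blood cell sum (35.6 CPM). Their r was 0.788 and 0.754 with Tubb2a, and 0.866 and 0.467 with Tubb2b. The part of these cell types in the result was not tested.

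The 2 stathmins were the members with the lowest fold changes in OPCs. Stmn1, which sequesters tubulin dimers, stood at 412, 554 and 454 CPM in ctl and at 409, 374 and 271 CPM in dKO libraries. The groups were separated by a narrow margin between ctl 1 and dKO 1, and the log2 fold change was -0.43 (SE 0.19, unadjusted p = 0.0488, adjusted p = 0.432, edgeR). Stmn4, a membrane-anchored stathmin, stood at 436, 655 and 510 CPM in ctl and at 499, 390 and 308 CPM in dKO libraries, which overlapped because dKO 1 was above ctl 1 (log2 fold change -0.42, SE 0.22, adjusted p = 0.495). The unadjusted p of Stmn1 was over 0.05 with DESeq2's size factors (0.0503) and without ctl 2 (0.167), ctl 3 (0.0797), dKO 2 (0.059) or dKO 3 (0.122), and without ctl 2 its log2 fold change was -0.30 and without dKO 3 -0.28.

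Tppp and Tubb4a followed the stathmins. Tppp stood at 1033, 1430 and 1156 CPM in ctl and at 1127, 989 and 798 CPM in dKO libraries (log2 fold change -0.31, SE 0.19, adjusted p = 0.563). Tubb4a stood at 2110, 2981 and 2193 CPM in ctl and at 2265, 1935 and 1555 CPM in dKO libraries (log2 fold change -0.34, SE 0.22, adjusted p = 0.58). For both genes ctl 2 was the highest and dKO 3 the lowest library, dKO 1 lay within the range of ctl, and the groups overlapped. Without ctl 2 the log2 fold change was -0.17 for each, and without dKO 3 it was -0.22 for Tubb4a and -0.20 for Tppp. Stmn4 likewise was at -0.25 without ctl 2 and at -0.27 without dKO 3.

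For Tuba1a, Tuba1b and Tubb3 the difference was within the larger SD of the 2 groups. Tuba1a stood at 496, 651 and 572 CPM in ctl and at 567, 524 and 484 CPM in dKO OPCs (log2 fold change -0.13, SE 0.15). Tuba1b stood at 142, 137 and 143 CPM in ctl and at 183, 131 and 157 CPM in dKO (0.16, SE 0.14). Tubb3 stood at 31.4, 52.9 and 44.8 CPM in ctl and at 53.2, 26.3 and 39.2 CPM in dKO (-0.12, SE 0.27). Without dKO 1 the log2 fold change of Tuba1b was 0.038 and without dKO 2 it was 0.28, and Tuba1a, Tuba1b and Tuba1c counted as 1 feature gave -0.05. For Tuba1a, Tuba1b and Tubb3 alike, the dKO libraries lay on both sides of the ctl libraries or among them. Tubb5 stood at 95.5, 106 and 105 CPM in ctl and at 133, 106 and 125 CPM in dKO (0.25, SE 0.12, adjusted p = 0.471), and it overlapped only because dKO 2 was just below ctl 2. Tubb5 had r of 0.911 over the 6 OPC libraries with the microglial marker sum, a description whose part in the result was not tested.

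In neuron libraries 8 of the 10 members had a log2 fold change above 0 and none had an adjusted p under 0.05 (range 0.521 to 0.956), where 0 of 14352 genes tested did (0%). DESeq2 called 88 genes and none of the members. At an unadjusted p under 0.05, 1 member (Stmn4) was higher, beside 9.00% of all genes (4.96% higher and 4.04% lower), and DESeq2 gave 3 such members beside 10.7% of all genes. The groups did not overlap for Stmn4, Stmn1 and Tuba1b, all higher in dKO, beside 15.3% of all genes. The median log2 fold change was 0.34 over the members and 0.01 over all genes.

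Stmn4 stood at 44.0, 56.0 and 51.7 CPM in ctl and at 88.7, 65.1 and 64.0 CPM in dKO neurons. All dKO libraries were above all ctl libraries, with dKO 1 the highest, and the log2 fold change was 0.52 (SE 0.18, unadjusted p = 0.0166, adjusted p = 0.521, edgeR). Without ctl 1 the unadjusted p was 0.0585. Stmn1 stood at 1138, 1560 and 1544 CPM in ctl and at 2177, 1718 and 1752 CPM in dKO libraries, again without overlap (log2 fold change 0.41, SE 0.19, adjusted p = 0.562).

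Among the tubulins, Tuba1a stood at 2184, 3076 and 2535 CPM in ctl and at 4084, 3563 and 2821 CPM in dKO neurons (log2 fold change 0.43, SE 0.22, adjusted p = 0.587). Tubb3 stood at 127, 205 and 197 CPM in ctl and at 287, 279 and 182 CPM in dKO (0.50, SE 0.24, adjusted p = 0.567). In both genes ctl 1 was the lowest library and dKO 3 lay within the range of ctl. Tuba1b stood at 815, 799 and 794 CPM in ctl and at 865, 888 and 820 CPM in dKO, so the groups were separated although the log2 fold change was only 0.10 (SE 0.14, unadjusted p = 0.511, edgeR). Counted as 1 feature, Tuba1a, Tuba1b and Tuba1c gave 0.36 (unadjusted p = 0.11, edgeR).

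The beta tubulins Tubb2a, Tubb2b and Tubb5 were slightly higher in dKO neurons with overlapping groups. Tubb2a stood at 106, 150 and 137 CPM in ctl and 160, 177 and 148 CPM in dKO (log2 fold change 0.30, SE 0.16). Tubb2b stood at 37.1, 64.5 and 59.4 CPM in ctl and 79.7, 78.0 and 51.4 CPM in dKO (0.38, SE 0.25). Tubb2a and Tubb2b counted as 1 feature gave 0.32. Tubb5 stood at 753, 901 and 869 CPM in ctl and 1110, 993 and 882 CPM in dKO (0.24, SE 0.16). Again ctl 1 was the lowest library for Tubb2a, Tubb2b and Tubb5. Without it the log2 fold change was 0.17 for Tubb2a, 0.17 for Tubb2b and 0.31 for Tubb3.

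The 2 members typical of oligodendrocytes did not share this pattern. Tubb4a stood at 192, 152 and 86.5 CPM in ctl and at 146, 137 and 128 CPM in dKO neurons (log2 fold change -0.07, SE 0.26), and Tppp at 51.1, 41.1 and 21.3 CPM against 37.3, 26.6 and 32.8 CPM (-0.23, SE 0.30). For both genes ctl 1 was the highest and ctl 3 the lowest of the 6 libraries, so the dKO libraries lay inside the range of ctl. Without ctl 1 both values turned positive, 0.20 for Tubb4a and 0.04 for Tppp.

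**Figure D3:**
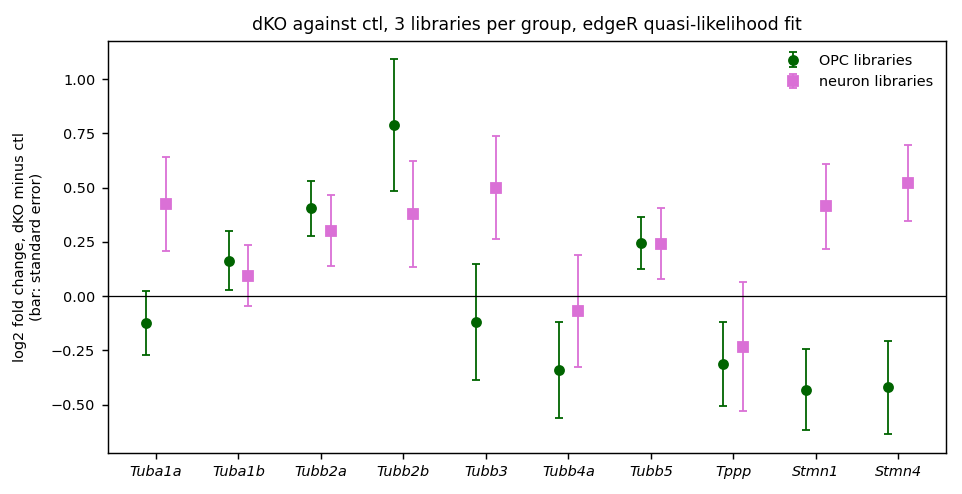
Log2 fold change (dKO minus ctl) of each member with its standard error from edgeR, in OPC libraries (green circles) and neuron libraries (purple squares), 3 libraries per group. Stmn1 and Stmn4 lie at -0.43 and -0.42 in OPCs and at 0.41 and 0.52 in neurons, and Tubb2b has the highest value in OPCs at 0.79.

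The members fell into sets that varied together across libraries, and the sets were not the same in the 2 preparations. The correlations are descriptions over 6 libraries on log2(CPM + 1), which share the groups, depth and cell mixture of those libraries. In OPCs Tppp went with Stmn4 (Pearson r = 0.995), Tubb4a (0.990), Stmn1 (0.981) and Tuba1a (0.933). In neurons Tppp still went with Tubb4a (0.926), but its r was -0.15 with Stmn4, -0.36 with Stmn1 and -0.17 with Tuba1a. The stathmins went with Tuba1a in both preparations (0.924 for Stmn4 and 0.858 for Stmn1 in OPCs, 0.928 and 0.894 in neurons), whereas r between Stmn1 and Tubb3 was 0.416 in OPCs and 0.876 in neurons. In neurons Tubb2b and Tubb3 had the closest likeness of all pairs of members (0.988). Tubb2a and Tubb2b went together in both preparations (0.893 in OPCs and 0.924 in neurons).

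**Figure D4:**
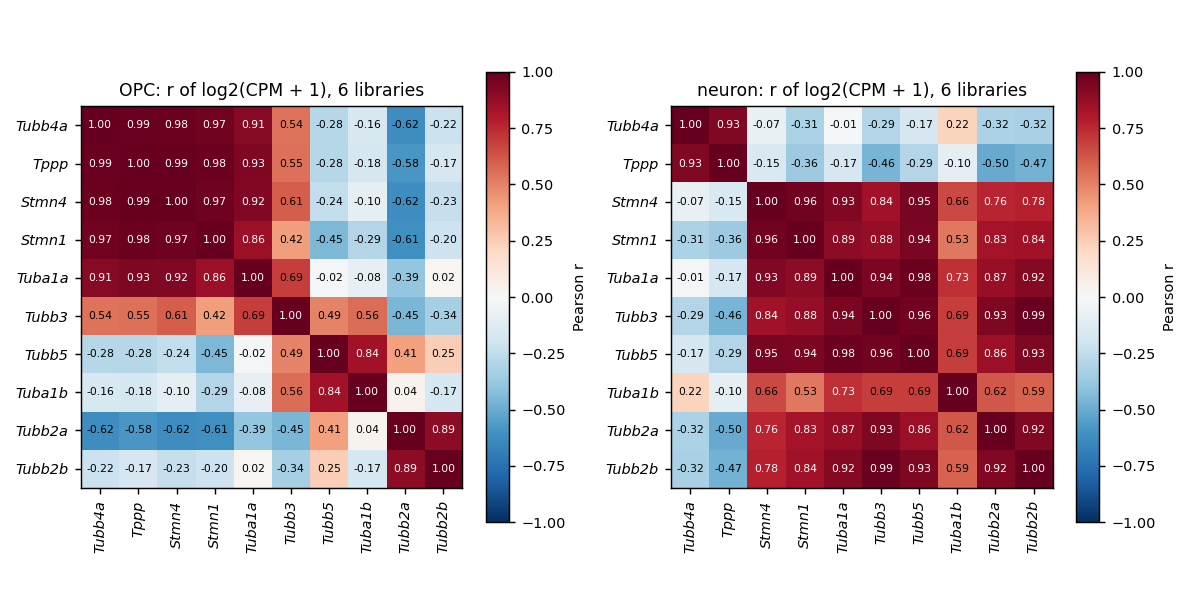
Pearson r between the members' log2(CPM + 1) over the 6 OPC libraries (left) and the 6 neuron libraries (right), from blue (-1) to red (1). In OPCs Tubb4a, Tppp, Stmn4, Stmn1 and Tuba1a form 1 red block, whereas in neurons Tubb4a and Tppp form a pair (0.926) apart from Stmn4, Stmn1 and Tuba1a, which stay together (0.894 to 0.962) and are red with the remaining members as well.

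Sums of cell type markers moved with these sets. In OPC libraries r with the mature oligodendrocyte marker sum was 0.850 for Tppp, 0.833 for Tubb4a, 0.832 for Stmn1 and 0.855 for Stmn4. That sum was 72310, 86400 and 78670 CPM in ctl and 91990, 75340 and 53900 CPM in dKO OPCs, which overlapped, and 4 of its 16 genes were lower and none higher in dKO at an unadjusted p under 0.05. The library dKO 1 had the highest marker sum but only intermediate levels of Tppp, Tubb4a, Stmn1 and Stmn4. Other sums ran against these members, with r of -0.88 between Tubb4a and the immature neuron sum, -0.87 between Tubb4a and the red blood cell sum, -0.84 between Stmn1 and the proliferation sum and -0.76 between Stmn1 and the microglial sum. For the astrocyte marker sum r was 0.949 with Tubb2a and 0.944 with Tubb2b.

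In neuron libraries r with the immature neuron marker sum was 0.975 for Tubb3, 0.969 for Tubb2a, 0.963 for Tubb2b, 0.936 for Tubb5, 0.922 for Stmn1 and 0.913 for Tuba1a. That sum was 1433, 2349 and 2272 CPM in ctl and 2991, 2933 and 2326 CPM in dKO libraries, lowest in ctl 1, and 5 of the 11 genes tested were higher in dKO at an unadjusted p under 0.05. The mature oligodendrocyte marker sum, 4744, 2735 and 1079 CPM in ctl and 1483, 1547 and 2306 CPM in dKO neurons, had r of 0.885 with Tppp and 0.836 with Tubb4a. The endothelial sum was 29260 to 32930 CPM in ctl and 15360 to 25900 CPM in dKO neurons, without overlap, and had r of -0.94 with Stmn4. Proliferation markers summed to 470 to 831 CPM in ctl and 840 to 946 CPM in dKO neurons, without overlap, and 7 of 12 were higher at an unadjusted p under 0.05. Their sum had r of 0.784 with Stmn1, 0.778 with Tubb2a and -0.78 with Tppp. The ependymal and choroid plexus sum (9101 to 16200 CPM in ctl and 15130 to 46610 CPM in dKO) had r of 0.797 with Stmn4, and the red blood cell sum (11090 to 49170 and 17390 to 73180 CPM) had r of 0.805 with Tubb2b. Both of these sums were highest in dKO 1. So was the neuron marker sum (442 to 550 CPM in ctl and 501 to 1039 CPM in dKO). Its r was 0.867 with Stmn4, 0.819 with Stmn1 and 0.808 with Tubb5. The astrocyte sum (450 to 1244 CPM in ctl and 329 to 665 CPM in dKO) and the microglial sum (503 to 2329 and 494 to 1275 CPM) were both highest in ctl 1, and the astrocyte sum had r of -0.865 with Stmn1, -0.863 with Tubb2b and -0.856 with Tubb5. The part of these shifts in the members' differences was not tested.

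**Figure D5:**
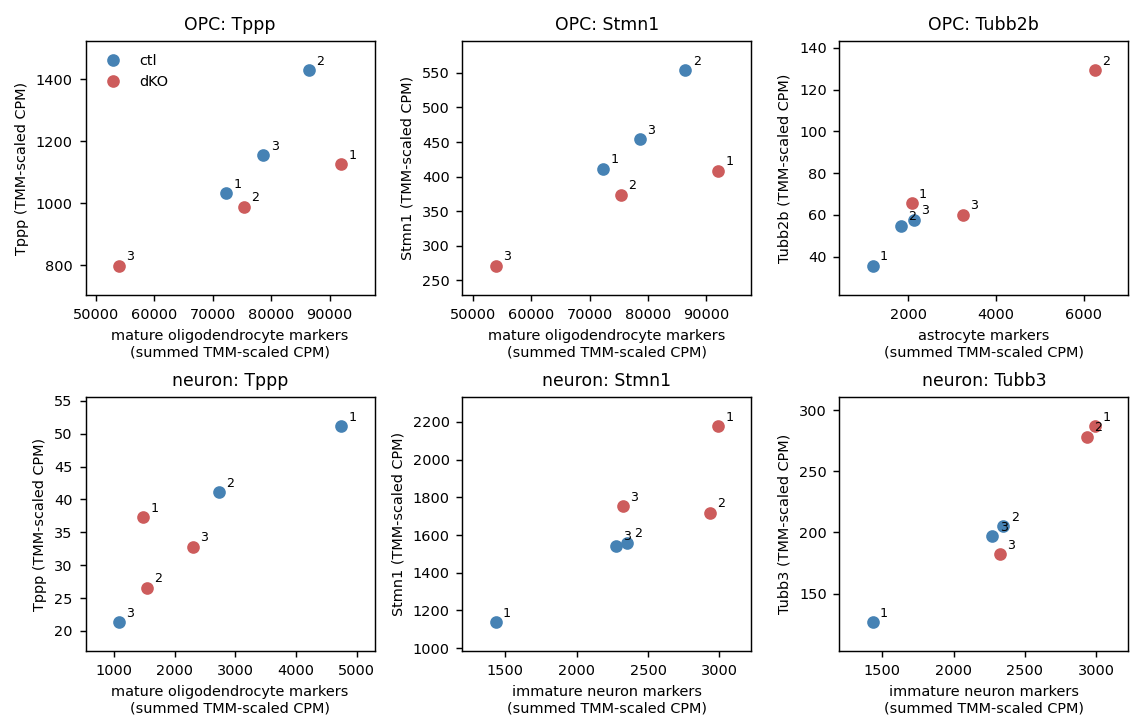
TMM-scaled CPM of single members (y axis) against the summed TMM-scaled CPM of a marker list (x axis), one point per library with its replicate number, ctl in blue and dKO in red, for OPCs (top) and neurons (bottom). Tubb2b and the astrocyte sum are both highest in OPC dKO 2 (129 and 6261 CPM), and Tubb3, Stmn1 and the immature neuron sum are all lowest in neuron ctl 1 (127, 1138 and 1433 CPM).

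By likeness over the 6 OPC libraries, the genes closest to Tppp among all genes tested were Dis3l2, Fads6 and Tmem125 (r of 0.998 each), and those closest to Stmn1 were P3h4 (0.999), Tesk2 (0.997) and Insc (0.996). In the neuron libraries the closest to Tppp were Tcea2 (0.994), Cwc15 (0.988) and Avpi1 (0.985), and to Stmn1 Rnpc3 (0.996), Trim67 (0.994) and Dclk1 (0.994), a doublecortin-like kinase that binds microtubules. None of these 3 neighbours of either gene was shared between the preparations. They are the best matches out of 17364 genes in OPCs and 14352 in neurons over only 6 libraries. A high r can then be reached by selection alone, so no function is read from them.

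The remaining alpha and beta tubulins, the remaining stathmins and the Tppp relatives were read beside the members. The stathmins and Tppp relatives among them were added after their values were seen. In OPCs Tuba4a, an alpha tubulin encoded without the C-terminal tyrosine, stood at 19.2, 17.4 and 19.8 CPM in ctl and 23.0, 31.9 and 25.4 CPM in dKO libraries, without overlap and highest in dKO 2 (log2 fold change 0.51, SE 0.15, unadjusted p = 0.00928, adjusted p = 0.31, edgeR). The log2 fold change in OPCs was 0.19 for Tuba1c, 0.13 for Tubb4b, 0.44 for Tubb6, 0.35 for Stmn2, 0.68 for Stmn3 and -0.33 for Tppp3, all with overlapping groups. Tubb1 was near 0 in both tables.

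In neurons all 4 stathmins had positive fold changes. Stmn2, the SCG10 protein of growing axons, had a log2 fold change of 0.54 (SE 0.21, unadjusted p = 0.0293, adjusted p = 0.521, edgeR) with overlap, and Stmn3 one of 0.58 (SE 0.28). Tuba1c was at 32.5, 26.4 and 30.8 CPM in ctl and at 58.0, 40.8 and 40.3 CPM in dKO neurons (log2 fold change 0.63, SE 0.19, unadjusted p = 0.0089, adjusted p = 0.521). Tppp3 went the other way, with 22.9, 16.1 and 13.5 CPM in ctl and 11.1, 7.88 and 11.0 CPM in dKO libraries, all lower than ctl (log2 fold change -0.81, SE 0.27, unadjusted p = 0.016, adjusted p = 0.521). Log2 fold changes of Tubb4b (0.26) and Tuba4a (0.54, highest in dKO 1) were also positive, and those of Tubb6 (-0.29), Tuba8 (-0.49) and Tubb1 (0.43) had SEs of 0.33 to 0.73.

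A further 7 lists held 147 genes that nucleate, bind, cap, fold, modify, sever or travel on microtubules. None of them had an adjusted p under 0.05 in either preparation. In OPCs 2 of the 146 tested were higher and 11 lower in dKO at an unadjusted p under 0.05 (8.9%, beside 11.5% of all genes), with a median log2 fold change of -0.09. In neurons 11 of 145 were higher and none lower (7.6%, beside 9.00%), with a median of 0.09. In the leading direction alone, 7.5% were lower in OPCs, beside 5.27% of all genes, and 7.6% were higher in neurons, beside 4.96%.

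Genes of these lists that were lower without overlap in dKO OPCs at an unadjusted p under 0.05 included Atat1, the enzyme that acetylates alpha tubulin (log2 fold change -0.40, SE 0.12), Kif3a, a subunit of the kinesin-2 motor (-0.36, SE 0.12), and the severing enzyme Fign (-0.56, SE 0.19), with edgeR adjusted p of 0.313, 0.327 and 0.333. The stabilizers Map6 (-0.36) and Map6d1 (-0.46), the plus-end protein Clasp2 (-0.39), the dynein adaptor Bicd1 (-0.37), the folding cofactor Tbcd (-0.23) and the centrosomal protein Cdk5rap2 (-0.30) were lower too, with SEs of 0.10 to 0.19. The 2 that were higher were Dclk1 (0.56, SE 0.16) and Arl3, a small GTPase (0.30, SE 0.12). Dclk1 stood at 57.7 to 61.8 CPM in ctl and at 71.4, 111 and 79.8 CPM in dKO OPCs, highest in dKO 2 like Tubb2a and Tubb2b.

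In neurons the genes higher without overlap at an unadjusted p under 0.05 were the minus-end protein Camsap1 (log2 fold change 0.60, SE 0.19), the doublecortin-like kinases Dclk1 (0.50) and Dclk2 (0.59), Mtcl1, which crosslinks microtubules (0.65), the plus-end proteins Nav3 (0.60) and Tacc3 (0.52), the glutamylase subunit Ttll1 (0.53), Fignl1, a relative of the severing enzyme fidgetin (0.64), and Bicd1 (0.42). Their edgeR adjusted p was 0.521 to 0.533. Of the folding cofactors, Arl3 had the smallest p, with a log2 fold change of 0.54 (SE 0.22) and overlapping groups. Of the gamma tubulin list it was the epsilon tubulin Tube1 (0.64, SE 0.30). Of the genes named as lower in OPCs, Bicd1 and Atat1 had positive log2 fold changes in neurons (0.42 and 0.52). So had Kif3a (0.265), Map6 (0.147), Tbcd (0.133) and Clasp2 (0.0843). Fign (-1.21), Map6d1 (-0.203) and Cdk5rap2 (-0.0985) were negative in neurons too. Differences between the preparations were not tested.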

How the data were processed

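The members and gene lists were chosen with earlier results of these data known. OPC values were whole-number counts per gene deposited by the authors. The study's methods name HISAT2 and featureCounts with no distinction between tables. The neuron table held estimated counts and TPM per RefSeq transcript as deposited by the authors, which need not be whole, unlike the gene counts of featureCounts at its usual settings, so how it was made remains unclear. Its cKO columns were taken as the dKO libraries of that preparation. Transcripts were summed per Entrez gene and rounded. Rows without a symbol held 0.0441% of neuron counts. The authors' fold changes, p-values, normalized and FPKM columns were not used. The gene length deposited by the authors gave OPC TPM (counts per length, scaled to a fixed total).

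Genes whose normalized count averaged 10 or more were tested within each table with edgeR 4.0.16 (TMM factors recomputed after the filter, quasi-likelihood test, Benjamini-Hochberg adjustment) in R 4.3.3, with no covariate. The biological coefficient of variation was 20.5% in OPCs and 27.7% in neurons. Shares were compared with exact permutation tests over libraries (SciPy 1.17.1). On simulated counts with 200 genes changed by 2 on the log2 scale, 192 of 196 tested genes were recovered for OPCs (17355 genes) and 194 of 198 for neurons (14345 genes). Named genes were all members, the tested alpha and beta tubulins, the gene with the smallest p of each other microtubule list, up to 6 more per list with an unadjusted p under 0.05 and no overlap, and the 3 genes most like Tppp and Stmn1. The remaining stathmins and Tppp relatives were added after their values were seen. Alternatives were DESeq2 1.42.0, its size factors, no filter, a replicate block, leaving out each library, summed paralogs and shares without length. Libraries are pools of mice, and p-values measure the spread between these pools.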

Additional observations from a re-analysis of the deposited data

Results flagged for a closer look

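For 3 members every dKO library lay below the ctl mean in OPCs and above it in neurons, and the difference between the preparations was not tested, since the tables were counted in different ways. For Stmn4 the log2 fold change was -0.42 in OPCs and 0.52 in neurons, 0.94 apart, and the OPC value was -0.25 without ctl 2 and -0.27 without dKO 3. For Stmn1 the values were -0.43 and 0.41, 0.84 apart, with -0.28 in OPCs without dKO 3. For Tuba1a they were -0.13 and 0.43, 0.55 apart, with -0.024 in OPCs without ctl 2. Groups of 3 libraries were too small for the outlier test.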

How the results depend on the processing

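No member passed an adjusted p of 0.05 under any alternative run in either preparation. In OPCs the number at an unadjusted p under 0.05 was 3 (beside 11.5% of all genes), and 2 to 4 when 1 library was left out (beside 6.34% to 13.3%). In neurons it was 1 (beside 9.00%), was 3 with DESeq2 (Stmn4, Stmn1 and Tuba1a, beside 10.7%), and ran from 0 (without ctl 1, beside 5.45%) to 3 (without dKO 3, beside 7.43%). Of 208 fold changes under alternatives, 6 changed sign. With Tuba1a, Tuba1b and Tuba1c counted as 1 feature the OPC value of Tuba1b was -0.053. With 1 library left out, Tubb3 in OPCs ran from -0.39 to 0.11 (above 0 without ctl 2 or dKO 2), and in neurons Tubb4a ran from -0.33 to 0.20 and Tppp from -0.52 to 0.042 (both above 0 without ctl 1). The cause was not tested. Same-numbered libraries did not vary together (r of -0.15, 0.19 and 0.17 in OPCs and 0.17, -0.04 and -0.05 in neurons), so the numbers were not taken as pairs. With a replicate block, 3 members in OPCs and 1 in neurons had an unadjusted p under 0.05, and Tubb4a in neurons was at 0.0015. The Tubb4a share difference in OPCs ran from -7.85 to -4.38 percentage points when 1 library was left out. The members had 311 or more counts in every library, so the spread between libraries, not depth, limits these comparisons.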
